A study of Mus musculus with 55 samples.

Results

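The Rnf genes, named for the RING finger domain of their proteins, were followed in pyramidal neurons, 1 per library, of the prefrontal cortex of mice. Members were chosen by symbol: every gene whose name is Rnf followed only by a number, in upper or lower case, was taken, which gave 74 of the 22800 symbols in the deposited gene counts. The family came to attention because Rnf217 led the genes that were higher in both kinds of knockout cell, so its knockout differences are given here as a description and support nothing. Each sample was the cytosol of 1 neuron, aspirated through the recording pipette and sequenced. The wild-type (WT) cells, 15 of the D1 and 26 of the D2 kind, carry no knockout per the labels and came from animals of 28 to 34 and 29 to 35 days. The knockout (KO) cells, 6 D1 and 7 D2, carry Fmr1-/y, the loss in males of Fmr1, which lies on the X chromosome and makes the RNA-binding protein FMRP, a model of fragile X syndrome, and came from animals of 31 to 32 and 32 days. D1 and D2 are names of dopamine receptor types, and no source used here says how a cell was assigned to a kind. The animal of each cell, the strain of the WT cells and the sex of their animals are not named. Each group therefore counts as 1 sample, and no test was made. SDs and intervals between cells describe these cells only. The 7 KO D2 cells share their age of 32 days with 2 WT D2 cells, and the KO D1 cell of 31 days shares its age with 3 WT D1 cells, but for the 5 KO D1 cells of 32 days no WT D1 cell has the same age, so that genotype and age cannot be told apart there. The side label divides the cells exactly as their kind does.

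A ubiquitin ligase (E3) picks the protein to be marked and brings it to an E2 enzyme that carries activated ubiquitin, which an E1 enzyme has loaded. Most RING ligases hold the E2 and the target side by side and pass ubiquitin directly, whereas RING-between-RING ligases first take ubiquitin onto a cysteine of their own, as HECT ligases do. In neurons such ligases set the turnover of receptors, scaffold proteins and transcription regulators at the synapse and in the nucleus, some by sending proteins to the proteasome and others by marking without destruction, as on histones.

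Rnf217 and Rnf216, both RING-between-RING ligases, lay in opposite directions in the KO cells. Rnf217 (chromosome 10, 31493193 to 31609184, minus strand, 6 merged exons, GRCm38) acts on the iron exporter ferroportin, and none of its 11013 exon bases is shared with another gene. Rnf216 (chromosome 5, 142990893 to 143112994, minus strand), also called TRIAD3, acts on the synaptic protein Arc, and 220 of its 7182 exon bases are shared with Gm43380 on the other strand. The 250 bases before the transcription start of each gene, from the RefSeq promoter table for GRCm38.p6, are shown because these 2 related genes lay on opposite sides in both kinds of cell. They lie at chr10:31609726-31609975 and chr5:143113021-143113270, both on the minus strand, and are written 5′ to 3′ along the gene with every CG in capitals. The RefSeq starts used, at 31609725 and 143113020, lie upstream of the gene starts given above, at 31609184 and 143112994. The windows therefore do not adjoin the gene models whose exons are described here.

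Rnf217: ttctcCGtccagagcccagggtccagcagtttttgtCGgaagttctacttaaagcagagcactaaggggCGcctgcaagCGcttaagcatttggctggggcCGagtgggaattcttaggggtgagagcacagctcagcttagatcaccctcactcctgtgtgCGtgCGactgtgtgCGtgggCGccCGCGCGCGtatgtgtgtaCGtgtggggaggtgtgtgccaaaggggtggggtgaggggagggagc
Rnf216: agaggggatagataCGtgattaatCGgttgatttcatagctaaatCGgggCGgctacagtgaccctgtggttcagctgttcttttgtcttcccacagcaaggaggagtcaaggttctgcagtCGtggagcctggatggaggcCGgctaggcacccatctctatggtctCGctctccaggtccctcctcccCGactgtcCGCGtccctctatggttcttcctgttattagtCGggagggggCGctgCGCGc

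Each window holds 14 CG, against a median of 6 over 32851 windows of the same length and 15 over the 75 windows that the table holds for 58 members. GC content was 60% before Rnf217 and 56.8% before Rnf216. Motifs were searched on both strands. GGGCGG, the GC box, occurred 1 time before Rnf216 and not before Rnf217, and it was found in 57.3% of the members' windows and 32.7% of all windows. CCAAT (37.3% of members' windows, 33.8% of all), TATAAA (9.33% and 12.4%) and TGACG, part of the cAMP element (25.3% and 17.8%), were in neither of the printed windows. GGGCGG can overlap the CG in capitals, and a match is a stretch of letters, not a binding site.

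Levels are given as CPM, a gene's share of the counts of its cell scaled to a fixed total. Total counts ran from 260943 to 10673072 per cell, and cells with a read in at least 4000 genes, called gene-rich, were 9 of 15 WT D1, 13 of 26 WT D2, 6 of 6 KO D1 and 6 of 7 KO D2 cells. None of the 13 KO cells held a read of Fmr1, which was read in 8 of 15 WT D1 and 13 of 26 WT D2 cells. Pyramidal neuron markers were read in every group (8 of 8 markers), with a median summed level of 2054 to 2924 CPM. Markers of other cells were also read. Medians of the summed level of 12 microglia markers were 898 (WT D1), 713 (WT D2), 439 (KO D1) and 249 CPM (KO D2), and those of 8 astrocyte markers 952, 832, 468 and 678 CPM. In the same order, 6 oligodendrocyte markers had medians of 338, 514, 393 and 1059 CPM and 6 interneuron markers 0, 9.35, 0 and 44.1 CPM, both highest in KO D2 cells, and 5 endothelial markers stayed under 1 CPM in the median of every group. Their part in the results below was not tested.

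Every cell held reads of several members, but a minority of the members were read in most cells. A read in at least 1 cell was found for all members except Rnf125, Rnf148, Rnf151, Rnf183, Rnf186 and Rnf212, and 25 members were read in more of the 54 cells than not. At the other end 14 members were read in under 10% of cells, including the 6 without a read. The number of members with a read in a cell ranged from 4 to 49 in WT D1 (median 30), 5 to 54 in WT D2 (median 28.5), 30 to 50 in KO D1 (median 40.5) and 17 to 49 in KO D2 cells (median 38). It followed the number of all genes with a read, with Pearson's r of 0.97 and Spearman's rho of 0.94 over the 54 cells, which share depth and library quality. After each cell was thinned to 260943 counts, no cell being left out, the medians were 26, 23, 33 and 34 members in the same order. Among gene-rich cells alone they were 34 in WT D1, 45 in WT D2 and 40.5 in both KO groups. Summed over all members, the family took 4319, 4992, 4714 and 3786 CPM of a cell in the median of the same 4 groups.

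**Figure D1:**
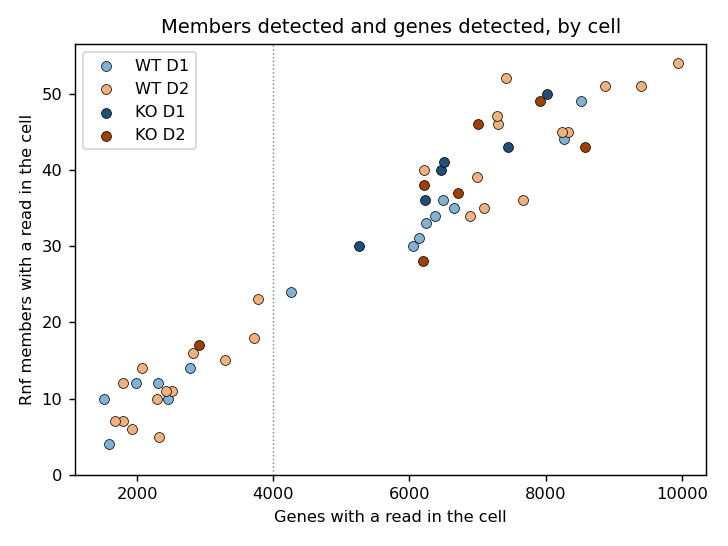
Rnf members with a read against all genes with a read, 1 point per cell coloured by group, with a dotted line at 4000 genes. The 6 KO D1 cells and 6 of the 7 KO D2 cells lie to the right of the line, where WT cells have similar numbers of members.

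Rnf187, which acts with the transcription factor AP-1, had the highest level per length of exon, at 211 CPM per kb as the mean of the 4 group means. It was read in 48 of the 54 cells. Its group means were 208 CPM per kb in WT D1, 213 in WT D2, 121 in KO D1 and 301 in KO D2 cells. In single cells it ran from 0 to 2151 CPM in WT D1 and from 0 to 4699 CPM in WT D2 cells, and from 1.97 to 366 and 5.42 to 1745 CPM in KO D1 and D2 cells, so all groups overlap. Next in order stood Rnf112, a brain-enriched RING protein with a GTPase domain (94.6 CPM per kb), Rnf130, a protease-associated transmembrane ligase of the Goliath type (79.3), and Rnf11, which works with the A20 editing complex (72.4). Rnf14 (67.5), Rnf7 (54.6), Rnf5 (47.6) and Rnf181 (45.5 CPM per kb) completed the first 8. Neighbours in this order overlap widely between cells, and only the gap between Rnf187 and the rest is wider than 2-fold. Rnf217 ranked 37th at 7.66 CPM per kb and Rnf216 51st at 3.83.

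**Figure D2:**
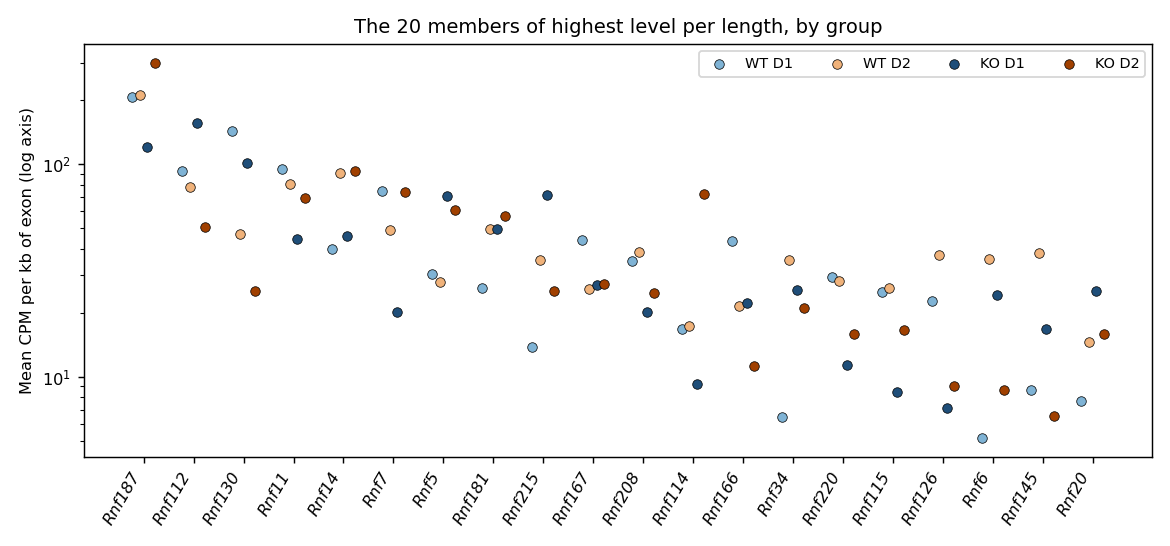
Mean CPM per kb of exon (log axis) of the 20 members with the highest level per length, 1 point per group. Rnf187 stands first in all 4 groups but KO D1, where Rnf112 has 156 CPM per kb against its 121.

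Each cell was put on the log2(CPM + 1) scale, and a difference between groups is that of their means. A member was measured in a comparison if its mean was at least 1 CPM and at least 10% of the cells compared had a read. It was counted as higher or lower if the difference reached 2 log2 units and the mean CPM differed the same way. In all 4 comparisons 58 members were measured, in 1 to 3 of them another 5, and in none 11, of which 6 had no read anywhere. Of the 74 members 48 were counted in no comparison.

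In D1 cells, 14 of 60 measured members were higher and 1 was lower in the knockout, where 25.7% and 1.34% of all measured genes were. In D2 cells 8 of 61 were higher and 1 lower, where 11.9% and 0.633% of all genes were. The median member differed by 1.16 in D1 cells and 0.58 in D2, beside 0.98 and 0.56 over all measured genes. These counts stand near the background of each comparison and are no result about the family. Counted higher in both kinds were Rnf20, Rnf150, Rnf181 and Rnf217, 4 of the 59 members measured in both (4.24% of all genes), and none was lower in both (0.0392%). In gene-rich cells 7 of 61 members were higher and 5 lower in D1 (11.4% and 7.63% of all genes), and 1 of 64 higher and 8 lower in D2 cells (4% and 11%), with medians of 0.42 and -0.63 against 0.14 and -0.39 over all genes. There Rnf217 was the 1 member counted higher in both kinds (0.386% of all genes) and Rnf216 the 1 counted lower in both (1.01%), of 60 measured. The family was chosen because Rnf217 was higher in both kinds. Counts of members higher in both kinds, over all cells or gene-rich cells, therefore cannot be read against these shares. From the summed counts of each group, in which deep cells weigh more, 5 members were higher and 6 lower in D1 (11.3% and 13.1% of all genes), and 3 higher and 10 lower in D2 cells (4.6% and 19.5%). Without KO D2 cell 3 alone, 4 members were higher and 3 lower in D2 cells (11% and 1.21% of all genes), and against WT D2 cells of 31 and 32 days alone 19 were higher and 4 lower (24.4% and 3.12%).

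**Figure D3:**
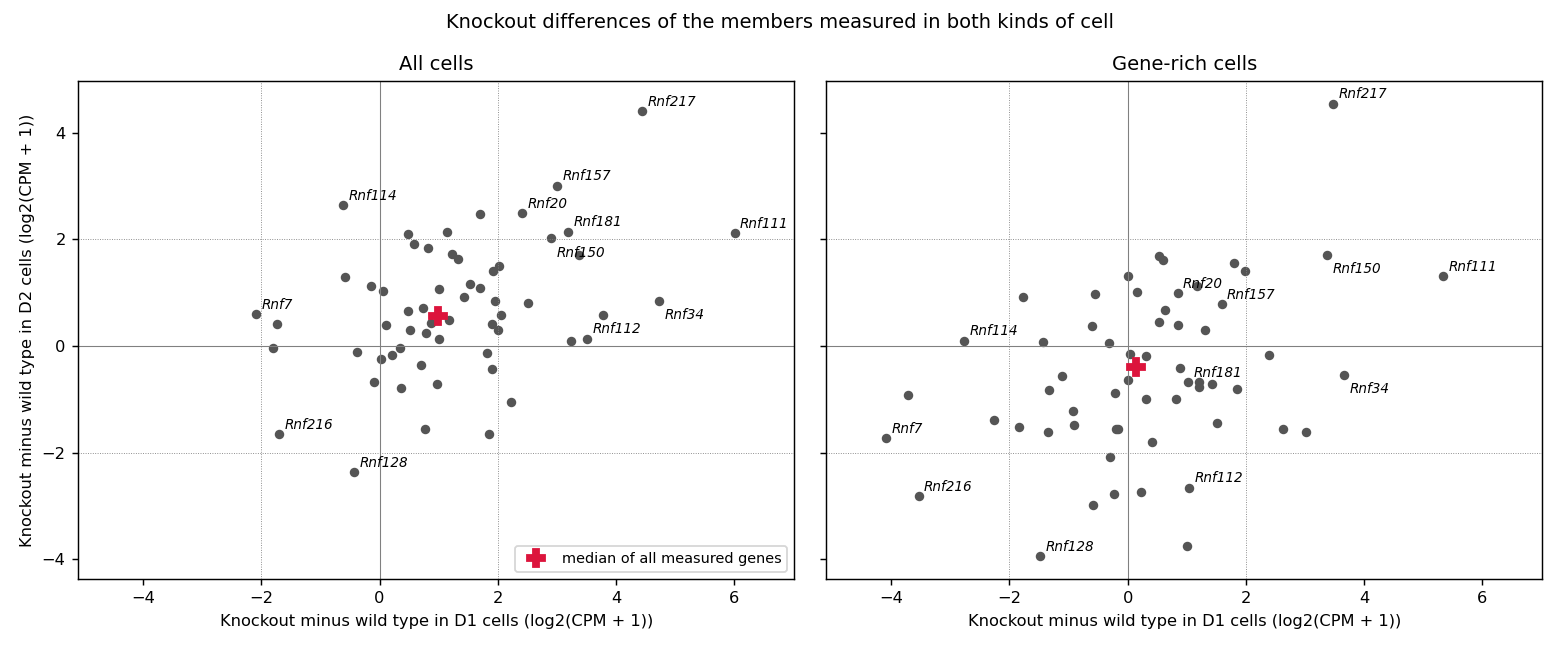
Knockout minus WT in D1 cells (x) and D2 cells (y), on the log2(CPM + 1) scale, for the 59 members measured in both kinds, over all cells (left) and gene-rich cells (right), with dotted lines at 2 and -2 and a cross at the median of all measured genes. Rnf217 lies at 4.44 and 4.41 on the left and at 3.48 and 4.55 on the right, and Rnf216 at -1.70 and -1.65 and at -3.54 and -2.82.

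Among the RING-between-RING members, Rnf217 was read in 4 of 15 WT D1 cells (exact Clopper-Pearson 95% interval 7.79 to 55.1%) and 10 of 26 WT D2 cells (20.2 to 59.4%). Reads were in 5 of 6 KO D1 (35.9 to 99.6%) and 6 of 7 KO D2 cells (42.1 to 99.6%). The intervals cover counting of these cells only and not the spread between animals, and they are no test of genotype, since the values of Rnf217 chose the family. KO D1 cells 1 to 6 had 258, 110, 120, 28.0, 418 and 0 CPM, and KO D2 cells 1 to 7 had 32.0, 54.4, 339, 67.1, 0, 210 and 138 CPM. In WT D1 cells the lowest and the median were 0 and the highest 472 CPM, and in WT D2 cells 0, 0 and 98.2 CPM. Knockout and WT cells thus overlap at both ends in D1 cells, where 1 WT cell exceeds every KO cell, and at the lower end in D2 cells, where 3 KO cells exceed every WT cell. With each KO cell left out in turn the difference stayed between 3.87 and 5.61 in D1 and between 3.97 and 5.37 in D2 cells. In summed counts it was 144 against 63.7 CPM in D1 cells, a log2 ratio of 1.16, and 102 against 9.43 CPM in D2 cells, a log2 ratio of 3.31. Against WT cells near the KO ages alone (30 and 31 days in D1, 31 and 32 days in D2), Rnf217 differed by 3.80 and 3.87. Between WT D1 and D2 cells it differed by 0.12, and between KO D1 and D2 cells by 0.14.

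Rnf216 was read in 7 of 15 WT D1 and 13 of 26 WT D2 cells but in 2 of 6 KO D1 and 2 of 7 KO D2 cells. Of the KO cells, D1 cells 4 and 6 had 41.5 and 0.885 CPM, D2 cells 3 and 6 had 64.3 and 0.13 CPM, and the other 9 had none. The highest WT cells reached 146 CPM in D1 and 907 CPM in D2. Means were 7.07 ± 16.9 CPM in knockout and 38.2 ± 54.4 CPM in WT D1 cells (SD, n = 6 and 15), and 9.2 ± 24.3 and 55.5 ± 177 CPM in D2 cells (SD, n = 7 and 26). The differences of -1.70 and -1.65 do not reach the size counted as lower, and without KO D1 cell 4 or D2 cell 3 they were -2.57 and -2.51. Among gene-rich cells 7 of 9 and 10 of 13 WT cells had a read and the differences were -3.54 in D1 and -2.82 in D2 cells. Summed counts gave log2 ratios of -3.24 and -3.04, and WT cells near the KO ages alone gave differences of -1.86 and -3.12. After thinning, 7 of 15 and 11 of 26 WT and 1 of 6 and 1 of 7 KO cells kept a read. Transcripts of Arc, the synaptic protein on which RNF216 acts, differed by 4.63 in D1 cells and -2.61 in D2, with reads in 6 of 6 KO D1 and 3 of 7 KO D2 cells against 10 of 15 and 15 of 26 WT cells. Whether the levels of Rnf216 and Arc are linked was not tested.

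The other 2 members of this class did not share a pattern. Rnf14, an androgen receptor coactivator and ligase, was read in every KO cell, at 79.1 to 431 CPM in D1 (median 140) and 9.4 to 1611 CPM in D2 cells (median 219). WT D1 cells ran from 0 to 1271 CPM (median 11) and WT D2 cells from 0 to 3846 CPM (median 184), so that all groups overlap. It differed by 3.37 in D1 cells and 1.71 in D2 (1.86 and -0.81 in gene-rich cells). Its summed counts were lower in KO D1 cells (181 against 335 CPM). Rnf31, the catalytic subunit HOIP of the linear ubiquitin complex, was read in 3 of 15, 5 of 26, 2 of 6 and 2 of 7 cells (WT D1, WT D2, KO D1, KO D2). Its differences were -0.14 in D1 and 1.12 in D2 cells.

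**Figure D4:**
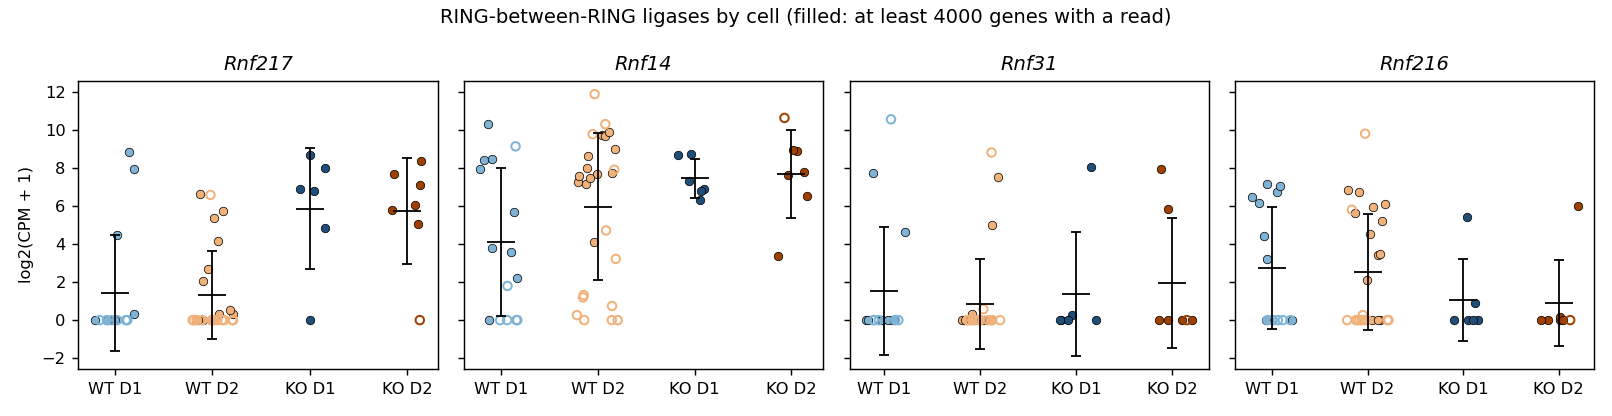
The 4 RING-between-RING members in every cell on the log2(CPM + 1) scale, with group mean and SD over cells as bars; filled points are gene-rich cells. Rnf217 is read in 11 of 13 KO cells and Rnf216 in 4 of 13.

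Chromatin and transcription ligases were counted higher for 4 of 11 measured members in D1 cells (25.7% of all genes) and 1 of 11 in D2 cells (11.9%). None was lower, and the medians were 1.33 and 0.80, beside 0.98 and 0.56 over all genes. These and the role counts below are a description and no result about a role group. Rnf20, which with Rnf40 attaches single ubiquitins to histone H2B, was read in 11 of 15 WT D1 cells (0 to 415 CPM, median 3.5) and 17 of 26 WT D2 cells (0 to 694, median 4.41). KO D1 cells 1 to 6 had 0.681, 320, 391, 0, 227 and 169 CPM and KO D2 cells 1 to 7 had 212, 13, 265, 95.5, 3.49, 129 and 92.2 CPM, inside the WT range in each kind. The differences were 2.41 in D1 and 2.50 in D2 cells over all cells and 0.85 and 0.99 over gene-rich cells. Without KO D1 cell 2, 3 or 5 the D1 value was 1.84, 1.78 or 1.94, and in summed D2 counts the ratio turned to -0.67. Its partner Rnf40 had reads in 5 of 15 (WT D1), 11 of 26 (WT D2), 3 of 6 (KO D1) and 3 of 7 (KO D2) cells. It differed by 2.01 in D1 cells and 0.30 in D2 (1.21 and -0.68 in gene-rich cells). Without KO D1 cell 1, 3 or 4 Rnf40 stood at 1.26, 1.18 or 1.52, and 762 of its 5621 exon bases are shared with genes on the other strand.

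Rnf111, known as Arkadia, which removes inhibitors of TGF-beta signalling, had the largest knockout difference of the family in D1 cells. WT D1 cells held 0 to 39.9 CPM (median 0, reads in 5 of 15) and KO D1 cells 1 to 6 held 133, 10.4, 184, 176, 616 and 145 CPM. All KO D1 cells but cell 2 exceed every WT D1 cell. The difference was 6.01, stayed between 5.56 and 6.71 with single KO cells left out, and was 5.34 in gene-rich cells and 4.94 in summed counts. In D2 cells it differed by 2.11 but was not counted, since the means were 65.7 ± 78.0 CPM in knockout and 66.0 ± 136 CPM in WT cells (SD, n = 7 and 26). Rnf111 is also lower in WT D1 than in WT D2 cells, by -1.30 over all cells and -2.18 in gene-rich cells. Whether the knockout difference itself differs between the kinds was not tested. Rnf2, the catalytic RING of Polycomb complex 1 that marks histone H2A, differed by -0.59 in D1 cells and 1.30 in D2, and Rnf4, a ligase for SUMO-bearing proteins, by 0.51 and 0.31. In gene-rich cells Rnf2 differed by -1.77 and 0.93. Rnf4 changed sign there in both kinds, to -1.83 and -1.51. Rnf169, a DNA damage protein, was read in 15 of 26 WT D2 cells and 1 of 7 KO D2 cells (-1.64, and -3.75 in gene-rich cells), and in D1 cells differed by 1.84.

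Of the protease-associated transmembrane ligases, which sit in endosomes and the plasma membrane, 6 of 9 were measured. Of these, 1 was higher in D1 cells (25.7% of all genes), and 1 was higher and 1 lower in D2 cells (11.9% and 0.633%). Rnf150 was read in 4 of 15 WT D1 and 6 of 26 WT D2 cells (medians 0, highest 270 and 146 CPM). KO D1 cells 1 to 6 had 0, 72.8, 105, 30.7, 0.302 and 34.2 CPM and KO D2 cells 1 to 7 had 11, 10, 17.6, 50.8, 0, 0 and 7.23 CPM, so both kinds overlap with WT. It differed by 2.90 in D1 cells and 2.02 in D2 (3.38 and 1.70 in gene-rich cells). The D2 value was under 2 without KO D2 cell 1, 2, 3, 4 or 7 (1.90, 1.92, 1.79, 1.55 and 1.99), the summed D2 ratio was -0.63, and 782 of its 17242 exon bases are shared with Gm45449. Rnf128, known as GRAIL for its part in T cell anergy, is on the X chromosome and was read in 13 of 26 WT D2 cells (0 to 729 CPM, median 1.44) and 1 of 7 KO D2 cells (50.2 CPM in cell 2). It differed by -2.37 in D2 cells, and by -3.94 in gene-rich cells. In D1 cells, with reads in 3 of 15 and 1 of 6 cells, it differed by -0.43. Rnf13, another endosomal member, differed by 1.01 and 1.06 over all cells and by 0.23 and -2.75 in gene-rich cells.

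Ligases of the endoplasmic reticulum and other membranes were counted higher for 2 of 11 measured members in D1 cells (25.7% of all genes). In D2 cells 1 of 10 was higher (11.9%), and none was lower in either kind. Rnf145, which takes part in the sterol-driven breakdown of HMG-CoA reductase, had 131 ± 129 CPM in knockout and 67.2 ± 117 CPM in WT D1 cells (SD, n = 6 and 15; difference 2.23). Leaving out KO D1 cell 1, 3 or 6 gave 1.57, 1.62 or 1.74. In gene-rich cells Rnf145 differed by 0.42 in D1, which was not counted, and by -1.80 in D2. In D2 cells it lay the other way, at 50.9 ± 70.2 against 296 ± 707 CPM (SD, n = 7 and 26; -1.05). Rnf5, a ligase that clears misfolded membrane proteins, was read in 5 of 7 knockout and 12 of 26 WT D2 cells and differed by 2.14, but by 1.61 to 1.91 without KO D2 cell 1, 2, 3 or 4. In D1 cells it differed by 1.14. In gene-rich cells it differed by -0.55 in D1 and 0.98 in D2, neither counted, and 366 of its 1483 exon bases are shared with Gm20463. Rnf26, which tethers vesicles near the nucleus, differed by 1.53 and 1.17, and Rnf121 by -0.09 and -0.68. Of the 3641 exon bases of Rnf26, 2059 are shared with genes on the same strand and 629 with genes on the other.

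Members with neuronal roles were measured for 8 of 9 in D1 and 9 of 9 in D2 cells. In each kind 1 was counted higher (25.7% and 11.9% of all genes) and none lower. Rnf112 was read in every KO D1 cell, where cells 1 to 6 had 728, 1064, 705, 613, 416 and 145 CPM, and in 10 of 15 WT D1 cells (0 to 1110.4 CPM, median 341). The highest WT cell lies above all KO cells. In D1 cells it differed by 3.51 over all cells and by 1.05 in gene-rich cells. In D2 cells Rnf112 differed by 0.14 over all cells but by -2.66 in gene-rich cells, where it was counted lower, and by -1.73 in summed counts. Rnf157, which acts in neuronal survival and dendrite growth, was read in 6 of 7 KO D2 cells (124, 87.1, 284, 167, 307, 202 and 0 CPM in cells 1 to 7) and in 15 of 26 WT D2 cells (0 to 501 CPM, median 10.1). It differed by 3.01 in both kinds but was counted only in D2, since the WT D1 mean of 133 ± 392 CPM (SD, n = 15) exceeds the knockout mean of 118 ± 115 CPM (SD, n = 6). Gene-rich cells gave 1.59 in D1 and 0.78 in D2 cells. Rnf10, which carries signals from NMDA receptors to the nucleus, differed by 0.82 and 1.84. In gene-rich cells Rnf10 differed by 0.16 and 1.01, and its D1 value was -0.15 without KO D1 cell 1. Rnf11 differed by 0.48 and 2.11, the latter not counted because the KO mean of 295 ± 307 CPM (SD, n = 7) was under the WT mean of 344 ± 465 CPM (SD, n = 26). Gene-rich cells gave -1.44 and 0.08 for Rnf11, and its D1 value was -0.29 without KO D1 cell 3. Rnf220, a regulator of neural patterning, differed by 2.01 and 1.5, also without a higher mean in the knockout over all cells. In gene-rich cells Rnf220 differed by 2.39 in D1, where it was counted higher, and by -0.17 in D2.

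Among the cullin partner and the ligases tied to immune and NF-kB signalling, 2 of 8 measured members were higher and 1 lower in D1 cells. In D1 cells 25.7% and 1.34% of all genes were. In D2 cells 1 of 8 was higher (11.9% of all genes). Rnf34, which marks caspases and the coactivator PGC-1alpha, was read in 6 of 15 WT D1 cells (0 to 239 CPM, median 0) and in every KO D1 cell (9.87, 62.4, 182, 159, 67 and 202 CPM). It differed by 4.73 in D1 cells and 0.84 in D2, and by 3.66 and -0.55 in gene-rich cells. Of its 4440 exon bases 627 are shared with Kdm2b on the other strand. Rnf7, the RING partner of cullin 5, was the 1 member counted lower in D1 cells. It was read in 9 of 15 WT D1 cells (0 to 547 CPM, median 58.1) and only in KO D1 cells 4 and 6, at 70.9 and 89.4 CPM. The difference was -2.09, and -1.67 without KO D1 cell 1, 2, 3 or 5. In D2 cells Rnf7 lay the other way, at 0.60 over all cells and 1.34 in summed counts. In gene-rich cells it was -4.09 in D1 and -1.73 in D2 cells. Rnf114, which takes part in T cell and NF-kB signalling, differed by -0.62 in D1 cells and 2.65 in D2 (1.99 without KO D2 cell 5, and 0.10 in gene-rich cells). Rnf115, a ligase linked to receptor traffic, differed by -1.73 and 0.41, and Rnf146, which reads poly(ADP-ribose) on its targets such as axin, by 2.06 and 0.58. In gene-rich D1 cells Rnf114 and Rnf115 were counted lower, at -2.77 and -3.72. Rnf115 stood at -0.91 in gene-rich D2 cells. Without KO D1 cell 2 or 3 Rnf146 stood at 1.35 or 1.34 in D1 cells. In gene-rich cells it differed by 0.86 in D1, which was not counted, and 0.40 in D2. Of its 4456 exon bases 3424 are shared with genes on the other strand (Echdc1 and Gm30698), so its reads are uncertain.

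Of the 17 members outside these groups, Rnf181, a small cytosolic ligase, was counted in both kinds. KO D1 cells 1 to 6 had 4.77, 106, 81.0, 200, 321 and 135 CPM, and KO D2 cells 1 to 7 had 109, 60.1, 95.1, 0.339, 737, 0 and 146 CPM. WT cells ran from 0 to 455 CPM in D1 (median 1.16) and from 0 to 1843 CPM in D2 (median 1.0), so both kinds overlap. The differences of 3.19 and 2.15 were 1.02 and -0.67 in gene-rich cells, and the D2 value was 1.88, 1.92, 1.43 or 1.81 without KO D2 cell 1, 3, 5 or 7. Rnf214 was lower by -1.80 in D1 cells, where all 15 WT cells had a read (1.44 to 113 CPM, median 11) and KO cells ran from 0 to 46.5 CPM (median 2.33). In D2 cells it differed by -0.05. In gene-rich cells Rnf214 differed by -2.26 in D1, where it was counted lower, and by -1.40 in D2. The remaining members of the whole family counted between knockout and WT, named after their values were seen, were Rnf6 (2.52), Rnf170 (3.25) and Rnf215 (3.79) in D1 and Rnf32 (2.48) in D2 cells. In the other kind of cell they differed by 0.80, 0.10, 0.58 and 1.69. In gene-rich cells of the kind where they were counted, they differed by 1.98, 2.63, 3.02 and 1.69. Of these, Rnf6 belongs to the chromatin and transcription ligases and Rnf170 to those of the endoplasmic reticulum and other membranes.

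**Figure D5:**
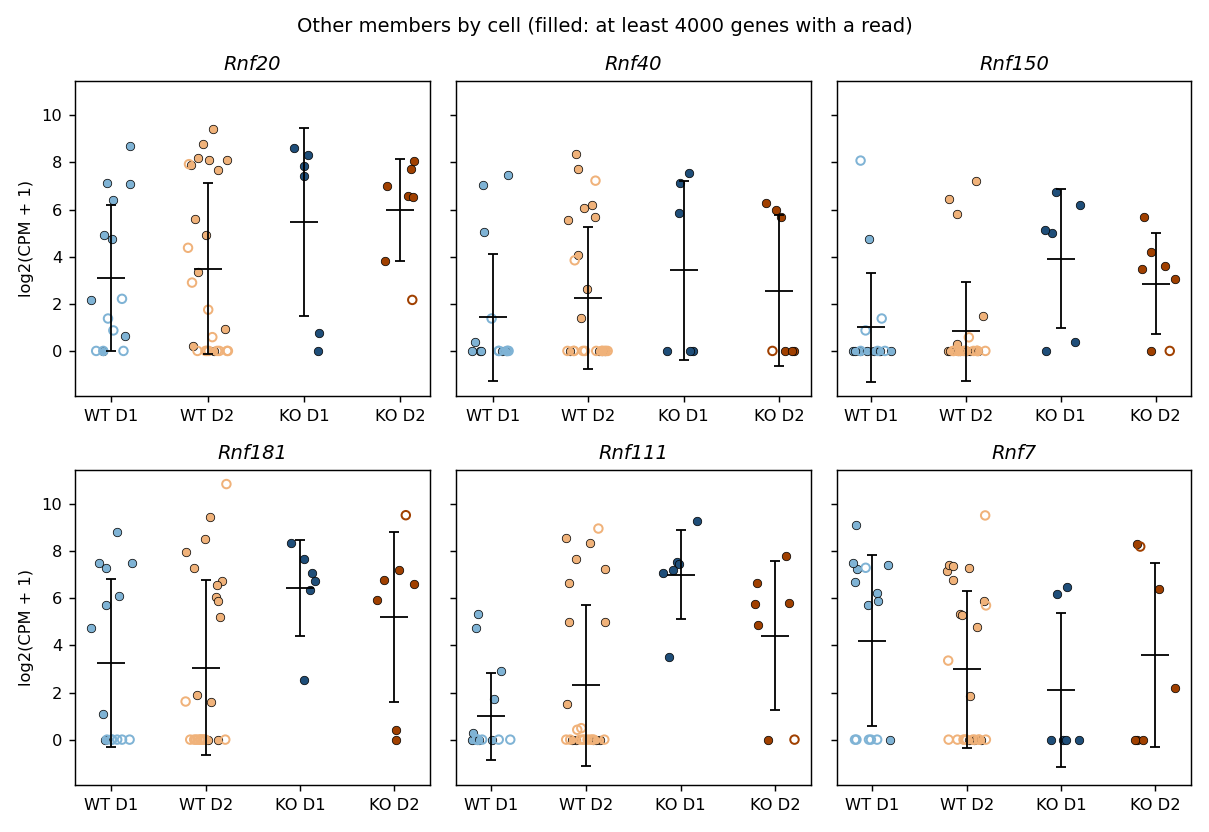
Rnf20, Rnf40, Rnf150, Rnf181, Rnf111 and Rnf7 in every cell on the log2(CPM + 1) scale, with group mean and SD over cells as bars; filled points are gene-rich cells. For Rnf111, 5 of 6 KO D1 cells lie above every WT D1 cell, and for the other 5 members the groups overlap.

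The rest of the ubiquitin system was read over all cells only. Beside it stand the shares of all measured genes counted higher in the knockout, 25.7% in D1 and 11.9% in D2 cells. In gene-rich cells these shares fell to 11.4% and 4%, and the lists were not counted there. How far the counts below follow the number of genes read in a cell was not tested. HECT ligases were counted higher for 15 of 24 measured members in D1 cells (median 2.24) and 3 of 24 in D2 cells (median 1.1), none lower. Among them were Ube3a, the Angelman syndrome ligase (3.32 and 2.52), and Huwe1 (2.71 and 2.25). Deubiquitinases were counted higher for 28 of 59 (median 2.10) and 10 of 59 (median 0.83), including Usp36 (3.81 and 2.61). Of other RING-between-RING ligases 5 of 10 and 2 of 10 were higher, including Arih1, a partner of cullin ligases (2.77 and 2.20), whereas Park2, the parkin gene, differed by 3.27 in D1 cells and -0.66 in D2. Higher members numbered 9 of 24 in D1 and 4 of 23 in D2 cells among the Trim ligases (Trim37, 3.06 and 3.48), 3 of 10 and 1 of 10 among the March ligases, and 9 of 21 (1 lower) and 5 of 21 among other single RING ligases (Mycbp2, which acts in axon and synapse growth, 4.46 and 2.79). E2 enzymes numbered 5 of 29 and 5 of 30 (Ube2j1, 2.95 and 2.72), E1 enzymes 2 of 8 and 2 of 8 (Uba2, 4.44 and 1.75), and cullin ligase cores 2 of 12 and 1 of 12 (Rbx1, the RING partner of most cullins, 1.46 and 2.99). The medians of these 9 lists ran from 0.47 (E2 enzymes) to 2.25 (other RING-between-RING ligases) in D1 cells and from 0.06 (other RING-between-RING ligases) to 1.44 (E2 enzymes) in D2 cells, so that the Rnf medians of 1.16 and 0.58 lie inside their range, a description with no test.

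Between WT D1 and D2 cells, 0 of 59 measured members were higher in D1 and 2 were lower, where 1% and 1.32% of all genes were. The members' median was -0.19, beside -0.14 over all genes. Reads of Rnf34 were in 6 of 15 (D1) and 16 of 26 (D2) WT cells, with medians of 0 and 33.0 CPM and highest cells at 239 and 1026 CPM, and differed by -2.62. Rnf145 was read in 7 of 15 and 17 of 26 cells (medians 0 and 92.8 CPM, highest 376 and 3517 CPM) and differed by -2.22, or -1.72 without the cells of 30 days. Rnf130 (1.77), Rnf7 (1.22), Rnf185, an endoplasmic reticulum ligase (1.16), Rnf112 (1.01) and Rnf4 (0.96) lay furthest toward D1 cells, and Rnf14 (-1.89), Rnf128 (-1.61) and Rnf220 (-1.45) followed Rnf34 and Rnf145 toward D2 cells. In gene-rich cells 0 of 60 members were higher and 10 lower in D1, where 2.43% and 11.1% of all genes were, with Rnf220 at -4.48 (reads in 4 of 9 against 12 of 13 cells). There Rnf130 differed by 0.63, Rnf7 by 1.65, Rnf185 by 1.27, Rnf112 by -0.10 and Rnf4 by 0.96. Rnf34 stood at -2.68, Rnf14 at -2.40 and Rnf128 at -2.27 in the same cells, and Rnf145 at -1.76, which was not counted. Without the cells of 29 days 3 members were higher (3.2% of all genes), and without those of 31 days 4 were lower (4.24%).

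Between KO D1 and D2 cells, 7 of 62 members were higher in D1 and 4 lower, where 14.9% and 6.73% of all genes were. The median was 0.20, beside 0.29 over all genes. These are the same KO cells as in the comparisons above, so the values are not independent of them. Rnf112 differed most, at 145 to 1064 CPM in D1 cells against 0 to 567 CPM in D2 cells (4.38), where 3 D2 cells stand between the lowest and highest D1 cells and 4 below all of them. Rnf130 had reads in 5 of 6 D1 against 3 of 7 D2 cells (3.25). Toward D2 cells lay Rnf114 (-2.70), Rnf2 (-2.29), Rnf115 (-2.15) and Rnf11 (-2.14). Rnf2 stood at -1.93 and -1.92 without KO D2 cells 1 and 4, Rnf11 at -1.08 without KO D1 cell 1 or 5, and Rnf115 at -3.34 without KO D1 cell 3 and -1.49 without KO D2 cell 4. Without KO D1 cell 5, 11 members were higher and 2 lower (17.7% and 5.92% of all genes). Rnf217 differed by 0.14 between the kinds of KO cell, ranging from -0.81 without KO D2 cell 5 to 1.32 without KO D1 cell 6. Rnf216 differed by 0.17, ranging from -0.70 without KO D1 cell 4 to 1.02 without KO D2 cell 3, so no direction was kept for either.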

How the data were processed

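Single neurons were measured by RNA sequencing of pipette cytosol, with Nextera XT libraries from total RNA per the labels' protocols. The deposited counts are whole-number reads per gene, made by the authors on GRCm38 with Trimmomatic, STAR and featureCounts, per the submitters' processing notes; for versions, settings and use of strand no source used here gives a value. A normalized signal table was deposited as well, each cell's counts times 1 factor (0.373 to 51.5), used only as an alternative. Each table had 2 columns that match no sample, which were not used. Of 55 libraries, the 1 that failed quality control entered no comparison.

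CPM used each cell's total over genes. Differences, thresholds and counts were computed on all 22800 symbols with Python 3.11.15, numpy 2.4.6, pandas 2.3.3 and scipy 1.17.1, TMM factors with edgeR 4.0.16 in R 4.3.3, and figures with matplotlib 3.10.9. All 74 members matched GENCODE vM21 by symbol, which gave positions and exon lengths; 29 share exon bases with another gene, and their reads are uncertain. Counts of all 74 were equal in the deposited table of 22880 Ensembl identifiers, and 66 were in the normalized table. Promoters came from RefSeq. In simulated counts, 200 of 22800 genes were changed by 2 log2 units, all of at least 10 CPM over the pooled cells. The right direction was found for 99.5% (knockout against wild type, D1), 100% (the same, D2), 100% (wild-type D1 against D2) and 99% (knockout D1 against D2). The simulation was not set to match the many cells without a read of a member. It checks the calculation and says nothing about how sure the directions reported here are. The members and lists were chosen with earlier results of these data known. Named members need a mean of 10 CPM and reads in 33.3% of a group's cells: the 6 per direction with the largest smaller knockout difference, the 3 per direction in each kind and between knockout kinds, the 5 per direction between wild-type kinds, the 8 highest per kb, the 2 leading each role, and Rnf217, Rnf216, Rnf14, Rnf31, Rnf10, Rnf11, Rnf2, Rnf20, Rnf40 and Rnf7 always; of each other list, the 2 with the largest smaller difference. Other genes named were chosen for their known roles. The values of 1 member the rule named are not reported here.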

Additional observations from a re-analysis of the deposited data

Results flagged for a closer look

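In the 2 knockout groups, 36 sets of per-cell values of members were checked for a single cell far from the others, and 11 were flagged. Chance flags about 1 in 20 sets where values are normally distributed, a rate that was not measured for these sets, many of which hold cells at 0. Each flag was on the highest cell. In knockout D1 cells, Rnf31 (267 CPM), Rnf111 (616 CPM) and Rnf121 (114 CPM) stood apart in cell 5, Rnf2 in cell 1 (18 CPM) and Rnf216 in cell 4 (41.5 CPM). In knockout D2 cells, Rnf14 (1611 CPM) and Rnf181 (737 CPM) stood apart in cell 5, the 1 knockout cell that was not gene-rich. Rnf31 (250 CPM), Rnf121 (80.3 CPM) and Rnf150 (50.8 CPM) stood apart in knockout D2 cell 4, and Rnf216 in cell 3 (64.3 CPM). The library that failed quality control had 950010 counts in 995 genes and reads of 4 members, with Rnf20 at 1.05 CPM and none of Rnf217, Rnf216, Rnf150 or Rnf181.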

How the results depend on the processing

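Members higher and lower in the knockout numbered 14 and 1 in D1 and 8 and 1 in D2 cells. Alternatives follow in the same order, with shares of all measured genes in brackets. The authors' normalized values gave 7 and 1 (17.2% and 1.51%), and 5 and 1 (8.29% and 0.525%). A pseudocount of 10 gave 5 and 0 (7.14% and 0.158%), and 1 and 0 (1.35% and 0.0356%). Gene-rich cells gave 7 and 5 (11.4% and 7.63%), and 1 and 8 (4% and 11%). Subtracting the median of all measured genes gave 8 and 4 (12.1% and 7.81%), and 3 and 4 (5.75% and 2.65%). Summed counts gave 5 and 6 (11.3% and 13.1%), and 3 and 10 (4.6% and 19.5%), and the D1 median turned to -0.10. Against wild-type cells of 30 and 31 days 3 D1 members were lower (4.18% of all genes). Against those of 31 and 32 days 19 D2 members were higher and 4 lower (24.4% and 3.12%). Between wild-type kinds (0 and 2), a pseudocount of 10 gave 0 lower (0.0271% of all genes) and gene-rich cells 10 lower (11.1%). Summed counts gave 2 higher and 5 lower there (5.26% and 10.6%). Between knockout kinds (7 and 4), a pseudocount of 10 gave 1 and 1 (3.66% and 0.992% of all genes), and thinning 2 lower (7.2%). Single knockout cells were left out in turn, and no single wild-type cell was. Higher and lower members then ranged from 13 to 16 and 0 to 2 in D1 and 4 to 10 and 1 to 3 in D2. Between knockout kinds they ranged from 5 to 11 and 2 to 6. For wild-type kinds, all cells of 1 shared age (29, 30, 31 or 34 days) were left out at a time. This gave 0 to 3 higher and 2 to 4 lower. The shares of all genes that go with these ranges are not given here, so the ranges are no result about the family. Shares of all measured genes counted higher, 25.7% in D1 and 11.9% in D2, moved as well, to 17.2% and 8.29% with the authors' normalized values and to 7.14% and 1.35% with a pseudocount of 10. Of the 20 knockout differences of named members that were counted as higher or lower, the 4 that changed sign under an alternative were Rnf14 in D1 (-0.88), Rnf20 (-0.67) and Rnf150 (-0.63) in D2 from summed counts, and Rnf181 in D2 (-0.67) in gene-rich cells; the cause was not tested. Of the 46 that were not counted, 35 changed sign under at least 1 alternative. Over all 66, gene-rich cells changed the sign of 17 and summed counts that of 26. No paired analysis was possible because the labels give no replicate numbers that cells of different groups share. Few cells and genes with no read in many of them limit every value here, and no test across animals could be made.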
